A study of Mus musculus with 20 samples.

Results

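Transcripts of 10 genes that receive or relay growth and survival signals in melanoblasts, the embryonic precursors of pigment cells, were followed across the conditions of an RNA-seq experiment. They were chosen by name: Kit, its ligand gene Kitl, Ednrb, Mc1r, Erbb3, Met, Fgfr1, Fgfr2, Fgfr3 and the survival gene Bcl2. All 10 had a row among 29956 gene rows. A filter on low counts kept 9 of them among the 13541 genes tested, and Ednrb fell below it. Kitl passed through 6 libraries, of which 4 were the shHIRA I libraries, so its presence among the tested genes was tied to its level there.

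The cells were melb-a, an immortal mouse line labelled as wild-type melanoblasts, sequenced as poly(A) RNA in 20 libraries, 4 in each of 5 groups. The parental group met no virus. The other cells took up lentivirus over 16 h with 8 µg/ml polybrene, were selected in 1 µg/ml puromycin, and carried a hairpin RNA directed at luciferase (shLuciferase), a scrambled hairpin (shScramble) or either of a pair of hairpins directed at Hira (shHIRA I and shHIRA II). HIRA is the chaperone that places the histone variant H3.3 into chromatin outside DNA replication, and the comparison asks how its knockdown alters transcripts. Every group grew in 10% serum with 10 ng/ml SCF, the protein that Kitl encodes, and 40 pM Fgf2, so agonists of Kit and of the Fgf receptors were present throughout. When the cells were harvested after infection is not given in the sources used here. All replicates come from 1 cell line and the design text describes them as independent, so p-values measure the spread between cultures of that line.

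Kit is the receptor tyrosine kinase for SCF and works through Ras, the MAP kinase cascade and PI3 kinase to keep melanoblasts alive, dividing and migrating. Endothelin acts on Ednrb, melanocortins on Mc1r, neuregulins on Erbb3 with its partner Erbb2, hepatocyte growth factor on Met, and Fgf2 on the Fgf receptors, while Bcl2 restrains the mitochondrial pathway of cell death. Mitf, the leading transcription factor of the lineage, is modified by Kit signalling and is itself a known regulator of Kit, Met and Bcl2 in pigment cells.

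Mean library totals by group were between 16.8 M (shHIRA II-labelled) and 19.3 M (parental) estimated counts. Levels below are in CPM (counts scaled to library size by edgeR's TMM method) unless TPM, which also divides by transcript length, is named. Hira itself had 88.1 ± 8.57 CPM in parental cells (SD, n = 4), 76.2 ± 9.84 in the 8 libraries with a control hairpin, 36.8 ± 8.44 with shHIRA I and 66.8 ± 4.12 in the shHIRA II-labelled libraries. Its log2 change from the control hairpins was -1.05 ± 0.14 (SE) with shHIRA I (adjusted p = 5.15e-05, edgeR's quasi-likelihood test with Benjamini-Hochberg adjustment over all genes tested) and -0.19 ± 0.14 in the shHIRA II-labelled libraries (adjusted p = 0.306). Against parental cells the latter group was at -0.40 ± 0.16 (95% interval -0.73 to -0.07, adjusted p = 0.0618), with all 4 libraries below all 4 parental ones. A lower Hira level was thus not called for it in either comparison, and it is named by its label throughout. Mitochondrial transcripts made up 7.17% of counts in parental cells, 7.98% with shLuciferase, 8.23% with shScramble, 5.70% with shHIRA I and 4.19% in the shHIRA II-labelled libraries, and shHIRA I replicate 3 stood lowest at 1.23%. Summed TPM of 10 melanoblast and melanocyte markers, Kit and Ednrb among them, was 2481 to 4287 in the 12 libraries without an shHIRA hairpin, 975.1 to 2987 with shHIRA I and 661 to 1065 in the shHIRA II-labelled libraries. Summed TPM of 8 fibroblast markers was 21.4 to 48.1 in those 12 libraries, 55.9 to 122 with shHIRA I and 7.89 to 15.9 in the shHIRA II-labelled libraries. Of these, Dcn (52.9 TPM) and Col1a2 (18.3 TPM) led with shHIRA I, while Col3a1 averaged 0.199 TPM and Thy1 was listed at 0. Summed TPM of 8 Schwann cell and glia markers, Erbb3 among them, was 342.4 to 428 in parental cells, 264 to 454 with shLuciferase, 281 to 477 with shScramble, 123 to 398 with shHIRA I and 212 to 219 in the shHIRA II-labelled libraries. Over both shHIRA groups against the control hairpins, 4 of 7 tested Schwann cell and glia markers were called lower and 0 higher. For melanoblast and melanocyte markers 7 of 9 were lower and 0 higher, and for fibroblast markers 1 of 6 was lower and 1 higher. Of all genes tested, 15.1% were called lower and 14.2% higher in that comparison. The average hides opposite shifts of the fibroblast markers. With shHIRA I, 4 of 6 were called higher and 0 lower, beside 10.9% and 8.87% of all genes. In the shHIRA II-labelled libraries 0 were higher and 4 lower, beside 15.7% and 16.7%. Leukocyte markers summed to at most 1.32 TPM and keratinocyte markers to at most 9.78 TPM in any library. How far such shifts contribute to the values below was not tested, except for the mitochondrial share, which was also fitted as a covariate.

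Averaged over both shHIRA groups against both control hairpins, Kit, Met and Mc1r fell and Fgfr1 and Bcl2 rose. That is 5 of the 8 genes that reached the filter's level in every library, beside 29.3% of all genes tested in the same comparison. Here and below, the background also covers genes that reached that level in only some libraries. A share for genes at that level in every library was not computed. The 2 that rose stand beside a background of 14.2% called higher, and the 3 that fell beside 15.1% called lower. Kitl was called higher as well, and it is left out of these counts because it entered the test through the shHIRA I libraries, where it is high. With shHIRA I, 4 of the 8 were called (background 19.7%), 2 higher (Fgfr1, Bcl2; background 10.9%) and 2 lower (Kit, Mc1r; background 8.87%), with a median log2 change of -0.35 beside 0.05 for all genes. In the shHIRA II-labelled libraries, 3 were called (background 32.4%), all lower (Kit, Met, Fgfr2; background 16.7%), with none among the 15.7% of genes called higher and a median of -0.41 beside 0.02. Both contrasts use the same 8 control libraries. When the shHIRA groups were set directly against each other, Kit, Met, Fgfr1 and Bcl2 were lower in the shHIRA II-labelled libraries, 4 of 8 beside 21% of all genes in either direction, 12.4% lower and 8.6% higher. Mc1r, Erbb3, Fgfr2, Fgfr3 and Kitl did not differ by a call between the hairpins, so a call with only 1 hairpin is not shown to be a difference for them.

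**Figure D1:**
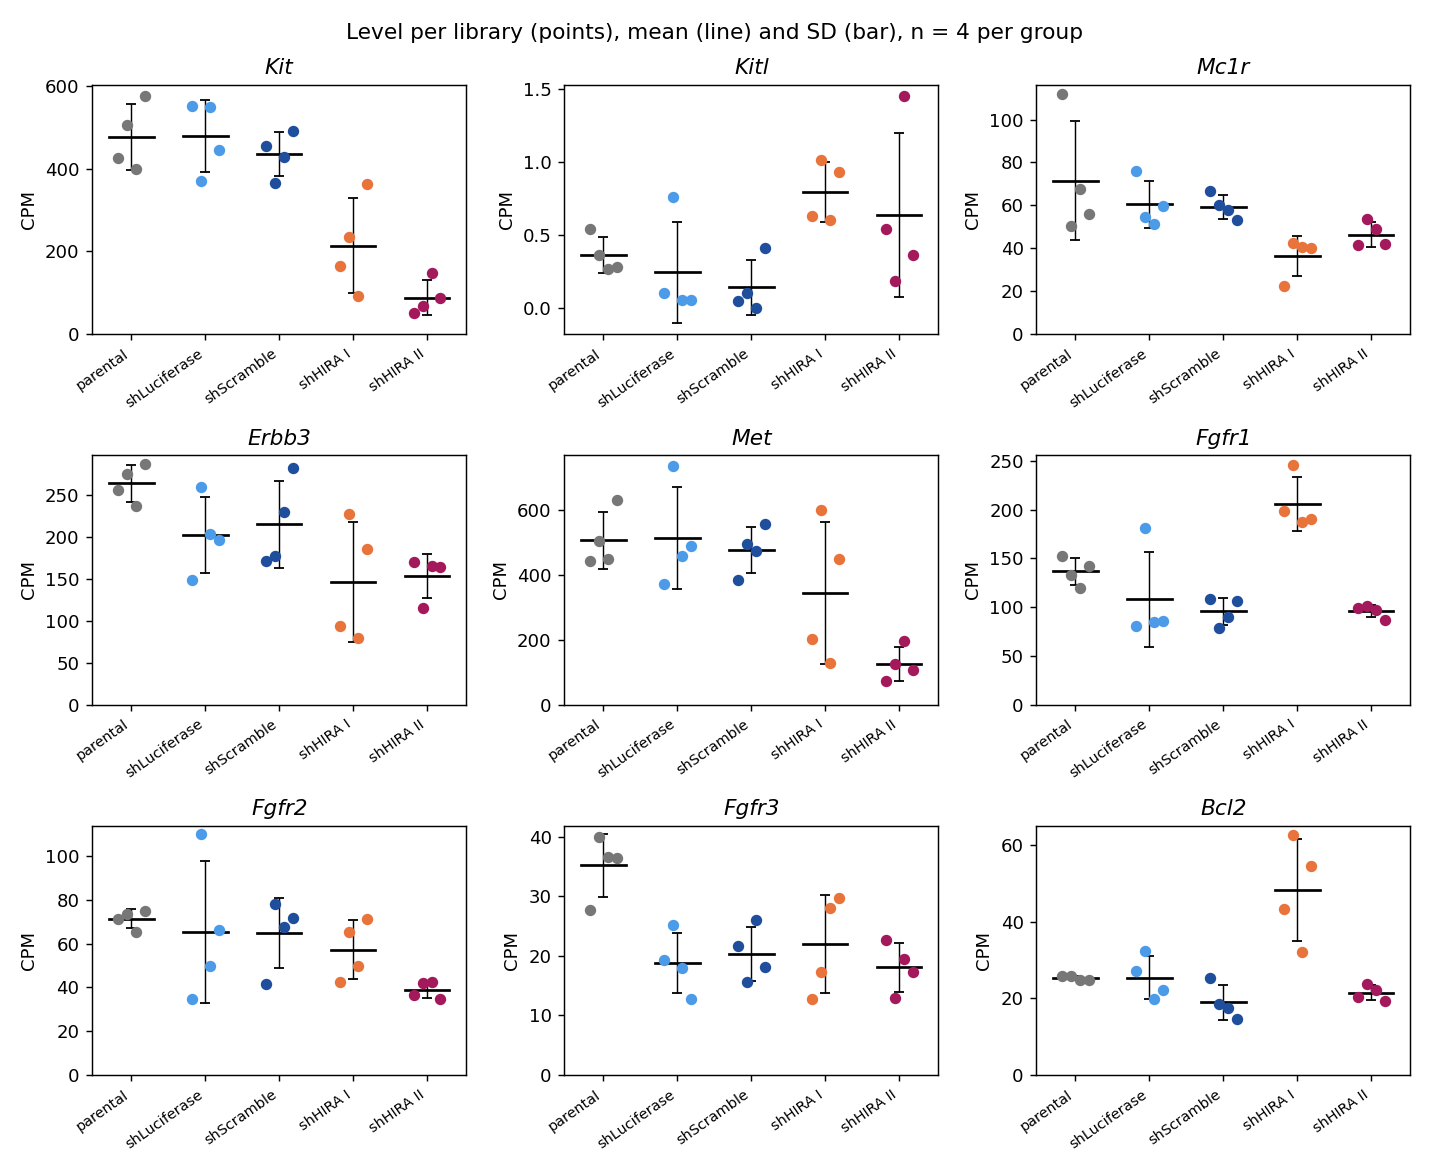
CPM of the 9 tested genes in each of the 20 libraries (points), with the mean (line) and SD (bar) of each group of 4; every panel has its own linear scale. Kit in all 8 shHIRA libraries lies below all 8 control hairpin libraries, and the shHIRA I points are the highest for Fgfr1.

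**Figure D2:**
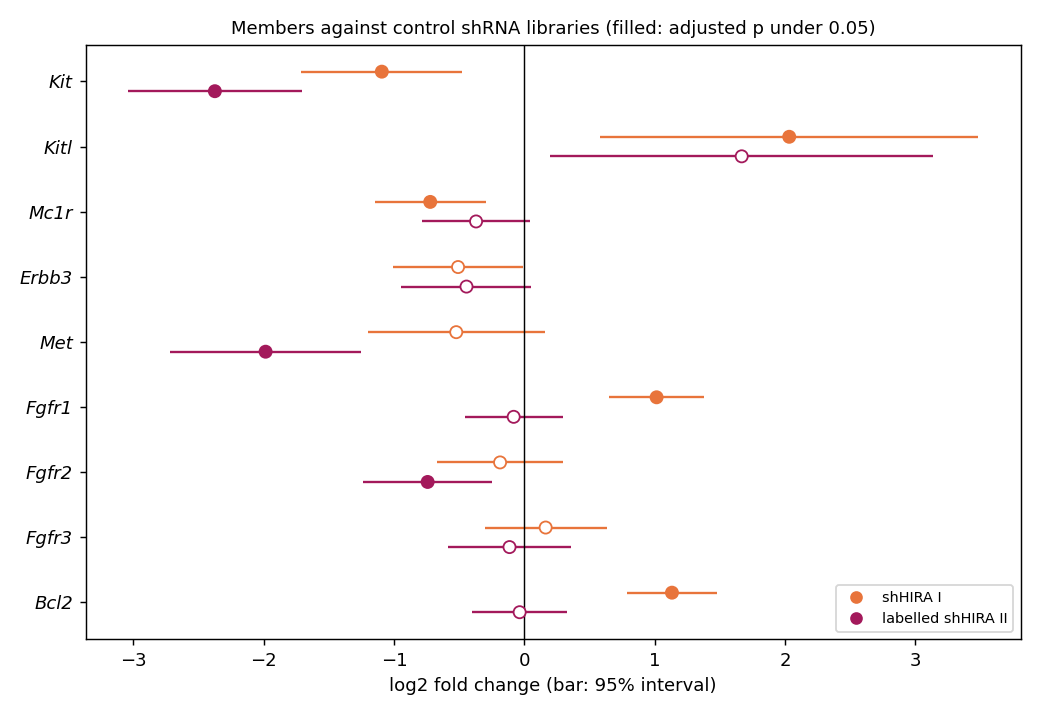
Log2 fold change (edgeR) of each gene with shHIRA I and in the shHIRA II-labelled libraries, against the mean of the control hairpins; bars are 95% intervals and filled points have an adjusted p under 0.05. Kit is filled for both, Met and Fgfr2 only in the shHIRA II-labelled libraries, and Kitl, Mc1r, Fgfr1 and Bcl2 only with shHIRA I.

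Promoters are printed for the genes called lower over both hairpins (Kit, Met and Mc1r) or only in the shHIRA II-labelled libraries (Fgfr2), each against the control hairpins. E-boxes are marked because Mitf, a known regulator of Kit and Met, binds them. Whether Mitf had a part in these falls was not tested. The windows are RefSeq's (GRCm38.p6), from 250 bases before to 50 bases after an annotated start, 5′ to 3′ on the gene's strand, with capitals marking E-boxes. CACGTG is the full form. CATGTG is the weaker form, and it reads as CACATG when it lies on the other strand. They are Kit at chr5:75574737-75575036 (plus strand), Met at chr6:17463707-17464006 (plus), Mc1r at chr8:123406832-123407131 (plus) and Fgfr2 at chr7:130266759-130267058 (minus).
Kit: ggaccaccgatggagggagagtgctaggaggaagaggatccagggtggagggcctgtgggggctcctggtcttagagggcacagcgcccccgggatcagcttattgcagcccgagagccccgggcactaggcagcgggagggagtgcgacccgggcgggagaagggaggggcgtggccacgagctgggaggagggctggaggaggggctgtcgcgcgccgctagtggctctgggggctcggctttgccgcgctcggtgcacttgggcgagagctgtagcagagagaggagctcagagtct
Met: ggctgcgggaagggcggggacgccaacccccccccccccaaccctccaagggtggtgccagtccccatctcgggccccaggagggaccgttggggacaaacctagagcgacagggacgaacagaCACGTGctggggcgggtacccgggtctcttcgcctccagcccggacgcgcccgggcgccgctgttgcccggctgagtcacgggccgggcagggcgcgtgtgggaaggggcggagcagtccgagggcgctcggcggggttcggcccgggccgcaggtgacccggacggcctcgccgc
Mc1r: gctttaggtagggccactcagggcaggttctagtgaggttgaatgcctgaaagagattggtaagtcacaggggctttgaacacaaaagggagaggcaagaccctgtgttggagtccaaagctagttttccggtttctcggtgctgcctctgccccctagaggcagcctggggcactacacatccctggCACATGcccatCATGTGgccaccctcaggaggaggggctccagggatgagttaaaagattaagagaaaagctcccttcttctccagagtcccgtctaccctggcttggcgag
Fgfr2: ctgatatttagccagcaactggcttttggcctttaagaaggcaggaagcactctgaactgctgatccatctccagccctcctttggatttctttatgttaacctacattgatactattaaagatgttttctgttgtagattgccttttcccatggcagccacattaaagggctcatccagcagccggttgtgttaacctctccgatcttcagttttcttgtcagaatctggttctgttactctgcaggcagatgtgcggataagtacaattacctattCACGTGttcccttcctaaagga
Met held CACGTG 126 bases before its start, and Fgfr2 held it 28 bases after. Mc1r held a pair of the weaker form, 62 and 51 bases before its start. Kit, the gene with the largest fall in both shHIRA groups among those called lower, held neither form in this window. Of 10 genes, 8 had a promoter in the table, and 3 of the 8 held an E-box of either form on either strand. Among all 32851 mouse promoters of the same length, 7.15% held CACGTG, 14.2% held CATGTG and 20.4% held either. The windows of Kit and Met were rich in G and C (69.0% and 75.7%, beside a median of 52.7% for all promoters), while those of Mc1r (55.0%) and Fgfr2 (43.7%) were not. A match describes letters in this window and shows no binding.

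Kit lies on chromosome 5 (bases 75574987 to 75656722 of GRCm38 by RefSeq, plus strand, as for the genes below). It had 426, 506, 400 and 577 CPM in parental replicates 1 to 4, 553, 371, 550 and 445 with shLuciferase, and 455, 365, 430 and 492 with shScramble. With shHIRA I it had 165, 236, 92.5 and 363 CPM, and in the shHIRA II-labelled libraries 52.1, 66.9, 147 and 86.6. Every shHIRA library lay below every control hairpin library, by a narrow margin in shHIRA I replicate 4 (363 against 365), and the shHIRA groups overlapped each other. The log2 change was -1.09 ± 0.30 with shHIRA I (SE; 2.13-fold lower, 95% interval of the log2 change -1.71 to -0.47, adjusted p = 0.0128, edgeR) and -2.37 ± 0.32 in the shHIRA II-labelled libraries (5.18-fold lower, -3.04 to -1.71, adjusted p = 2.85e-05). The fall was deeper in the latter by a log2 difference of -1.28 ± 0.33 (adjusted p = 0.00967). Without shHIRA I replicate 1 the call with shHIRA I was lost (-0.99, adjusted p = 0.0506). The difference between hairpins was lost without shHIRA I replicate 4 (-0.90, adjusted p = 0.0519) and in a fit of those groups alone (-1.28, adjusted p = 0.0977). Kit's fall with shHIRA I was -0.86 with the mitochondrial share as a covariate (adjusted p = 0.0402) and -0.84 without the 2 libraries of lowest share (adjusted p = 0.0285). In bulk RNA, fewer cells with a transcript and less of it per cell cannot be told apart.

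Kitl, on chromosome 10 (100015615 to 100100416, plus strand), encodes SCF and was barely transcribed. The medium supplied SCF, and the cells' own Kitl RNA did not exceed 0.384 TPM in any library. It had 0.54, 0.36, 0.27 and 0.28 CPM in parental cells, and 0.10, 0.76, 0.055 and 0.052 with shLuciferase. It had 0.046, 0.097, 0 and 0.41 CPM with shScramble, 0.63, 1.01, 0.60 and 0.93 with shHIRA I, and 0.54, 0.18, 1.45 and 0.36 in the shHIRA II-labelled libraries. The shHIRA I libraries were high, yet shLuciferase replicate 2 lay within their range, and the shHIRA II-labelled libraries spanned most of the whole range. The log2 change was 2.03 ± 0.69 with shHIRA I (adjusted p = 0.045, edgeR) and 1.67 ± 0.70 in the shHIRA II-labelled libraries (adjusted p = 0.0756), from summed estimated counts of 28.2 over 8 control libraries, 57.8 and 47.4. A fit on log2(TPM + 1) gave 0.20 for shHIRA I (adjusted p = 0.0679), and the call was lost in 15 of the 20 fits that left out 1 library, from any of the 5 groups. Under a replicate block the shHIRA I value was 2.10 (adjusted p = 0.0539). Against parental cells the change with shHIRA I was 1.13 ± 0.80 and not called (adjusted p = 0.377).

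Ednrb, on chromosome 14 (103814615 to 103844508, minus strand), encodes the receptor through which endothelin 3 supports melanoblasts in the embryo, and is a standard marker of the lineage. Here it was effectively undetected: estimated counts were 0 in 17 of 20 libraries and at most 2.91 in the other 3 (shScramble replicates 1 and 2 and shHIRA I replicate 2). A count of 3, the most that a count of 0 allows, equals 0.148 to 0.205 CPM at these depths. No comparison between groups was possible at this level. Its relative Ednra was also near 0, at no more than 0.0625 TPM in any library, and Edn1 and Edn3 did not exceed 0.149 and 0.134 TPM.

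Mc1r, on chromosome 8 (123407082 to 123410744, plus strand), encodes the melanocortin receptor that raises cAMP and drives eumelanin synthesis. It had 112, 50.5, 67.7 and 56.1 CPM in parental cells, 76.1, 54.8, 51.5 and 59.6 with shLuciferase, and 66.6, 60.1, 58.0 and 53.0 with shScramble. It had 22.6, 42.5, 40.5 and 39.9 CPM with shHIRA I, and 41.4, 53.5, 48.8 and 41.8 in the shHIRA II-labelled libraries. All 4 shHIRA I libraries lay below all 8 control libraries, whereas 1 shHIRA II-labelled library reached into the control range. The log2 change was -0.72 ± 0.20 with shHIRA I (1.65-fold lower, adjusted p = 0.0163, edgeR), and leaving out replicate 1, the lowest, made it -0.56 (adjusted p = 0.0645). In the shHIRA II-labelled libraries it was -0.37 ± 0.20 (95% interval -0.79 to 0.05, adjusted p = 0.165), and the hairpins did not differ by a call (0.35 ± 0.23, adjusted p = 0.296).

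Erbb3, on chromosome 10 (128567523 to 128589635, minus strand), encodes a neuregulin receptor with little kinase activity of its own that signals with Erbb2. Its CPM were 257, 275, 238 and 287 in parental cells, 149, 260, 204 and 197 with shLuciferase, and 171, 177, 229 and 283 with shScramble. With shHIRA I they were 93.5, 228, 79.7 and 186, and in the shHIRA II-labelled libraries 170, 115, 165 and 164. The shHIRA I values split into a low pair and a pair inside the control range, and only 1 shHIRA II-labelled library lay below all controls. Neither change was called against the control hairpins: -0.51 ± 0.24 with shHIRA I (95% interval -1.01 to -0.01, adjusted p = 0.149, edgeR) and -0.44 ± 0.24 in the shHIRA II-labelled libraries (-0.94 to 0.06, adjusted p = 0.164). Without shHIRA I replicate 2 the first was called (-0.80, adjusted p = 0.0225). Erbb2 was transcribed at 8.96 to 13.4 TPM as a group mean, Erbb4 and Egfr did not exceed 0.202 and 0.128 TPM in any library, and Nrg1 was listed at 0 in all 20.

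Met, on chromosome 6 (17463349 to 17573980, plus strand), encodes the receptor of hepatocyte growth factor, a mitogen and motility factor of pigment cells. It had 442, 504, 447 and 630 CPM in parental cells, 371, 734, 458 and 488 with shLuciferase, and 384, 493, 471 and 555 with shScramble. It had 203, 599, 126 and 448 CPM with shHIRA I, and 73.5, 123, 195 and 107 in the shHIRA II-labelled libraries. All shHIRA II-labelled libraries lay below every control, while shHIRA I replicates 2 and 4 were inside the control range and replicates 1 and 3 far under it. The log2 change was -1.98 ± 0.35 in the shHIRA II-labelled libraries (3.96-fold lower, 95% interval -2.72 to -1.25, adjusted p = 0.000336, edgeR) and -0.52 ± 0.32 with shHIRA I (-1.20 to 0.16, adjusted p = 0.284). The difference between them was -1.46 ± 0.37 (adjusted p = 0.00918), which a fit of those groups alone did not call (-1.45, adjusted p = 0.0879). With the mitochondrial share as a covariate, the average change of Met over both hairpins went from -1.25 (adjusted p = 0.00154) to -0.78 (adjusted p = 0.0302). Hgf, the ligand gene, was listed at 0 in all libraries.

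Kit and Met tracked each other. Over the 20 libraries Pearson's r of their log2 CPM was 0.92, and after group means were subtracted it was 0.72, given as a description since the points share library composition. The shHIRA I replicates lowest in Kit, 1 and 3, were also the lowest in Met and Erbb3 of that group, and the within-group r of Erbb3 and Met was 0.79. Hira in shHIRA I replicates 1 to 4 was 45.4, 26.6, 41.8 and 33.4 CPM, so replicates 1 and 3 held the most Hira of that group. The shHIRA II-labelled libraries, where Kit and Met fell further, held more Hira (63.2 to 70.9 CPM). How the Hira level relates to these falls was not tested.

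**Figure D3:**
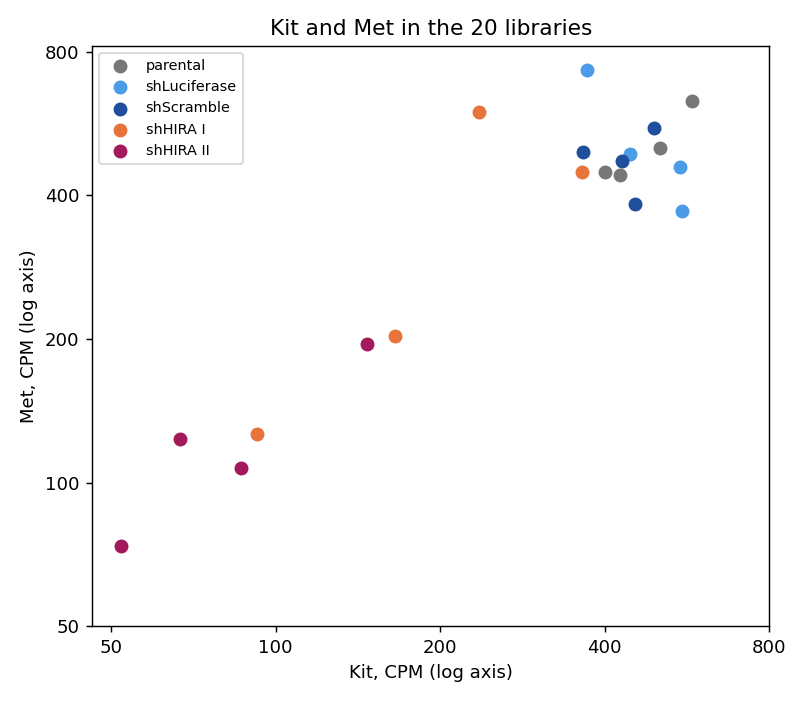
Kit against Met in the 20 libraries, in CPM on log axes, coloured by group. The 12 libraries without an shHIRA hairpin form 1 cloud at the upper right, the 4 labelled shHIRA II lie at the lower left, and the 4 shHIRA I libraries are strung between them.

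Of the Fgf receptors, Fgfr1 differed between the hairpins, and Fgfr2 and Fgfr3 were not called different. Fgfr1, on chromosome 8 (25518759 to 25575718, plus strand), the most abundant Fgf receptor here, had 152, 133, 120 and 142 CPM in parental cells, 80.2, 181, 84.4 and 86.3 with shLuciferase, and 108, 78.8, 90.3 and 106 with shScramble. It had 198, 246, 188 and 190 CPM with shHIRA I and 99.4, 101, 96.9 and 87.2 in the shHIRA II-labelled libraries. All shHIRA I libraries exceeded every other library, narrowly so for shLuciferase replicate 2, and the shHIRA II-labelled libraries lay inside the control range. The log2 change was 1.02 ± 0.17 with shHIRA I (2.02-fold, 95% interval 0.65 to 1.38, adjusted p = 0.000422, edgeR) and -0.08 ± 0.18 in the shHIRA II-labelled libraries (-0.46 to 0.30, adjusted p = 0.763). The difference was -1.10 ± 0.21 (adjusted p = 0.00128). The average over both hairpins (0.47 ± 0.15, adjusted p = 0.0225) rested on shHIRA I and was lost without shLuciferase replicate 3 (0.41, adjusted p = 0.054) or shScramble replicate 2 (0.41, adjusted p = 0.0593).

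Fgfr2, on chromosome 7 (130162451 to 130266808, minus strand), had 71.3, 73.5, 65.3 and 75.1 CPM in parental cells, 34.8, 110, 49.8 and 66.4 with shLuciferase, and 41.6, 77.9, 67.8 and 71.8 with shScramble. It had 42.4, 65.3, 49.7 and 71.3 CPM with shHIRA I and 36.5, 42.0, 42.5 and 34.6 in the shHIRA II-labelled libraries. The latter were uniformly low, but shLuciferase replicate 1 and shScramble replicate 1 were as low. The log2 change there was -0.74 ± 0.24 (1.67-fold lower, adjusted p = 0.0222, edgeR), and it was not called with the mitochondrial share as a covariate (-0.57, adjusted p = 0.127), with limma on log2(TPM + 1) (-0.56, adjusted p = 0.0769), or without shHIRA II replicate 1 (-0.69, adjusted p = 0.0705) or 4 (-0.67, adjusted p = 0.0707). With shHIRA I it was -0.19 ± 0.23 (95% interval -0.67 to 0.30, adjusted p = 0.627), and the difference between the hairpins was -0.56 ± 0.27 (-1.11 to 0.00, adjusted p = 0.15).

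Fgfr3, on chromosome 5 (33721724 to 33737068, plus strand), had 12.7 to 29.7 CPM in the 16 transduced libraries and 27.7 to 40.0 in the parental ones. It did not separate the shHIRA groups from the control hairpins, with log2 changes of 0.16 ± 0.22 (95% interval -0.30 to 0.63, adjusted p = 0.66, edgeR) and -0.11 ± 0.23 (-0.59 to 0.36, adjusted p = 0.735), and -0.28 ± 0.26 between the hairpins (adjusted p = 0.493). By transcript number, Fgfr1 made up 52.6% ± 2.93 of the summed TPM of Fgfr1 to Fgfr4 in parental cells (SD, n = 4), 51.9% ± 3.73 with shLuciferase and 48.9% ± 8.10 with shScramble. The share was 68.9% ± 5.62 with shHIRA I and 59.2% ± 1.40 in the shHIRA II-labelled libraries. Summed TPM averaged 111 with shHIRA I and 58.9 in the shHIRA II-labelled libraries, beside 84.4 in parental cells, 73.7 with shLuciferase and 65.3 with shScramble. Fgfr4 did not exceed 0.299 TPM in any library.

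**Figure D4:**
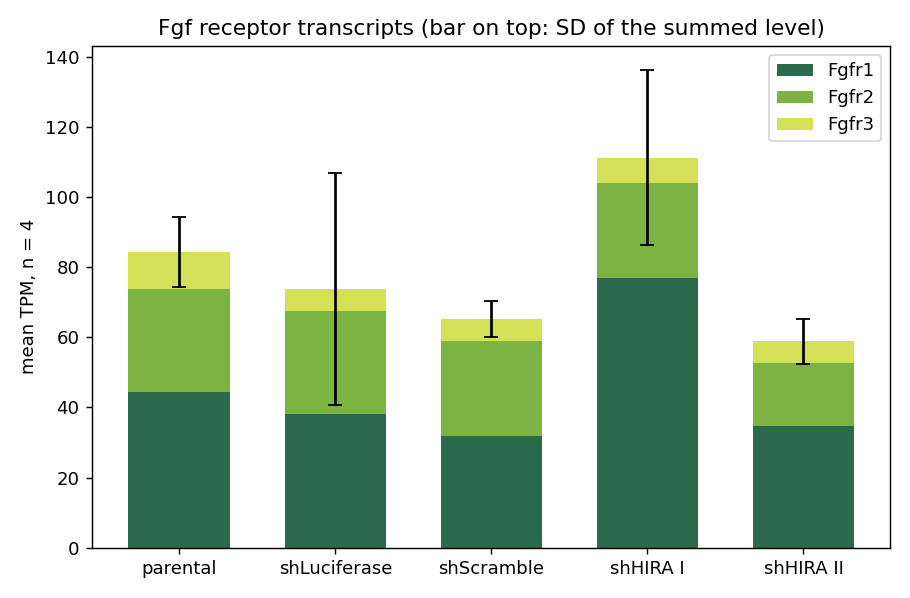
Mean TPM of Fgfr1, Fgfr2 and Fgfr3 in each group (stacked, n = 4), with the SD of the summed level as a bar. The shHIRA I column is the tallest at 111 TPM through Fgfr1, and the shLuciferase column has the widest spread.

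Bcl2, on chromosome 1 (106538176 to 106714290, minus strand), encodes the survival protein without which melanocytes are lost after birth in mice. It had 25.9, 25.7, 24.8 and 24.7 CPM in parental cells, 27.2, 32.4, 19.8 and 22.2 with shLuciferase, and 25.2, 18.4, 17.5 and 14.6 with shScramble. It had 43.3, 62.5, 32.0 and 54.6 CPM with shHIRA I and 20.3, 23.8, 22.2 and 19.4 in the shHIRA II-labelled libraries. The shHIRA I values overlapped the control range only in replicate 3, which lay just under shLuciferase replicate 2, and the shHIRA II-labelled libraries were within it. The log2 change was 1.13 ± 0.17 with shHIRA I (2.19-fold, 95% interval 0.79 to 1.48, adjusted p = 0.000114, edgeR) and -0.03 ± 0.17 in the shHIRA II-labelled libraries (-0.40 to 0.33, adjusted p = 0.901). The difference was -1.17 ± 0.20 (adjusted p = 0.000632). With shHIRA I the calls of Bcl2 and Fgfr1 held under all 30 alternative settings. Of 11 tested genes of the Bcl2 family, 2 were called higher and 0 lower with shHIRA I, beside 10.9% and 8.87% of all genes. They were Bcl2 itself and Bcl2l11, which encodes the death-promoting Bim and rose by 0.65 (adjusted p = 0.0111). In the shHIRA II-labelled libraries 11 of 11 missed the threshold, beside 32.4% of all genes called in either direction.

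On the TPM scale, which allows genes to be set side by side, Kit and Met were the most abundant of the 10 in parental cells (105 and 82.4 TPM, with overlapping ranges), followed by Erbb3 (45.8) and Fgfr1 (44.3), whose ranges also overlapped. Below them came Fgfr2 (29.4) and Mc1r (20.5), again overlapping, then Fgfr3 (10.6), Bcl2 (3.96), Kitl (0.078) and Ednrb (0), each clear of the next. With shHIRA I, Fgfr1 had the highest mean (76.9 TPM), ahead of Met (66.4) and Kit (55.3), and the ranges of neighbours in that order overlapped. In the shHIRA II-labelled libraries, Fgfr1 (34.8) and Erbb3 (30.1) stood above Met (22.8) and Kit (22.1), with overlaps between neighbours down to Mc1r (15.1). Kit's position therefore went from the first to the fourth, and over all libraries its mean TPM exceeded that of 87.8% of tested genes.

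Parental cells gave a second reference. With shHIRA I, 4 of the 8 genes were called beside a background of 16.8% (9.95% higher, 6.82% lower): Kit (-1.16), Mc1r (-0.97) and Erbb3 (-0.85) were lower and Bcl2 (0.93) was higher on the log2 scale. In a fit of these groups alone the lower calls were lost (adjusted p = 0.0893 for Kit, 0.0832 for Mc1r and 0.149 for Erbb3). Erbb3 kept its call in 14 of the 20 fits that left out 1 library and in 5 of 10 other settings, and Kit in 18 of 20 and 7 of 10, losing it without parental replicate 4 (-1.06, adjusted p = 0.0584) or shHIRA I replicate 1 (-1.06, adjusted p = 0.0625). In the shHIRA II-labelled libraries, 6 of 8 were called beside 29.3% (14.4% higher, 14.9% lower), all lower: Kit (-2.44), Met (-2.02), Fgfr3 (-0.96), Fgfr2 (-0.87), Erbb3 (-0.78) and Mc1r (-0.62). Both rest on the same 4 parental libraries. Fgfr1 with shHIRA I was 0.59 ± 0.21 above parental cells and was not called (adjusted p = 0.0582, edgeR), although the ranges did not overlap. Mc1r in the shHIRA II-labelled libraries was -0.35 (adjusted p = 0.21) without parental replicate 1, which had the highest level of all libraries. It kept its call in 12 of the 20 fits that left out 1 library and in 2 of 10 other settings, with an adjusted p of 0.0663 under a replicate block. Erbb3 kept its call there in 13 of 20 and 6 of 10, and Fgfr2 in 18 of 20 and 7 of 10, while Kit, Met and Fgfr3 kept theirs in all 30.

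Between control hairpins and parental cells, Fgfr3 was called lower with the hairpins, at a log2 change of -0.85 ± 0.22 (1.80-fold lower, adjusted p = 0.0364, edgeR), 1 of 8 beside 3.62% of all genes (2.05% higher, 1.57% lower), and all 8 control libraries lay below all 4 parental ones. That call was lost in 9 of the 20 fits that left out 1 library. Between shScramble and shLuciferase no member was called by edgeR, DESeq2 or limma, beside 0% of all genes by edgeR. At an unadjusted p under 0.05 edgeR gave 1 gene of these, Bcl2 with a log2 change of -0.42 ± 0.20, and 170 of all genes. DESeq2 called 3 genes higher and 2 lower after adjustment.

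The genes downstream of these receptors were read from lists. Of 18 tested MAP kinase output and feedback genes, 1 rose and 5 fell with shHIRA I (background 10.9% and 8.87%), with a median log2 change of -0.19 beside 0.05 for all genes. In the shHIRA II-labelled libraries 8 rose and 3 fell (15.7% and 16.7%), with a median of 0.41 beside 0.02. Relative to parental cells, the control hairpins had a median of 0.46 beside 0.01, with 2 called higher and 0 lower (2.05% and 1.57%). Against the same cells shHIRA I had -0.04 beside 0.03, with 3 higher and 2 lower (9.95% and 6.82%). The shHIRA II-labelled libraries had 0.78 beside -0.01, with 10 higher and 2 lower (14.4% and 14.9%). The fall of the shHIRA I median thus depended on the reference. Directly between the hairpins, 6 were higher in the shHIRA II-labelled libraries and none lower (8.6% and 12.4%). Etv4, an Ets factor induced by Fgf signalling, changed by 3.86 there (adjusted p = 0.000232) and by 1.36 with shHIRA I (adjusted p = 0.16), with mean levels of 46.2 and 8.14 CPM beside 4.55 and 2.23 in the control groups. Egr1, an immediate early gene, rose with both (0.89, adjusted p = 0.0315, and 1.14, adjusted p = 0.0047). Its mean was 4.66 CPM in parental cells beside 19.8 and 24.3 in the control groups. Myc fell with both (-0.63, adjusted p = 0.000923, and -0.48, adjusted p = 0.00461), as did Phlda1 (-0.83, adjusted p = 0.000265, and -0.36, adjusted p = 0.0441). Mean Phlda1 was 111 and 106 CPM in the control groups, 61.0 with shHIRA I and 84.7 in the shHIRA II-labelled libraries. Parental cells had 64.0 CPM of Phlda1, so its fall was from a level above theirs. Chosen after their values were seen, Dusp6, the phosphatase that switches off ERK, fell with shHIRA I (-1.24, adjusted p = 0.0049) and was at 0.40 in the shHIRA II-labelled libraries (adjusted p = 0.263), and the difference was called (1.65, adjusted p = 0.0016).

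**Figure D5:**
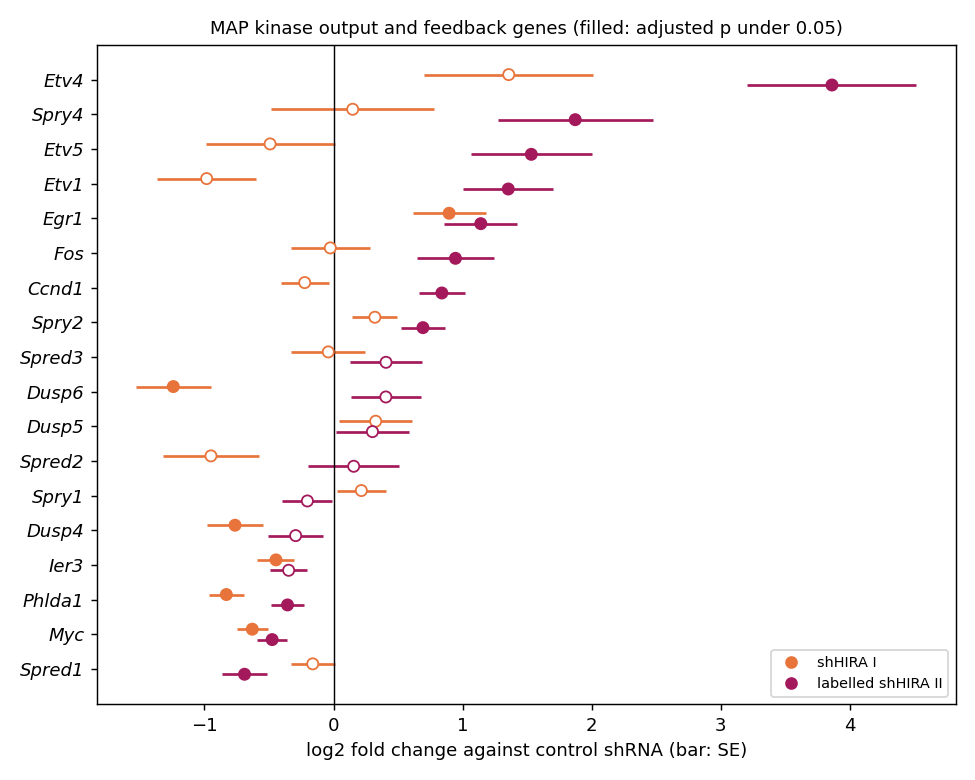
Log2 fold change against the control hairpins of the 18 tested MAP kinase output and feedback genes, with SE bars; filled points have an adjusted p under 0.05. Etv4, Spry4, Etv5 and Etv1 are filled on the right for the shHIRA II-labelled libraries, and Dusp6 is filled on the left for shHIRA I.

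Of 33 tested adaptors and early signalling genes, 1 rose and 5 fell over both hairpins, near or under the background of 14.2% and 15.1%, with a median of 0.00 beside 0.03. Lyn, a Src family kinase that binds activated Kit, fell by 0.54 (adjusted p = 0.00585). Braf, the kinase that activates MEK, averaged 0.55 over both hairpins (adjusted p = 0.0351), with 0.20 for shHIRA I (adjusted p = 0.591) and 0.90 for the shHIRA II label (adjusted p = 0.00495), a difference that was not called (adjusted p = 0.0702). Shc1, an adaptor of activated receptors, averaged -0.42 (adjusted p = 0.00652), with -0.20 (adjusted p = 0.309) and -0.63 (adjusted p = 0.00149), and that difference was called (adjusted p = 0.0481). Of 6 tested ligand genes, Fgf1 fell (-0.75, adjusted p = 0.00482). Fgf9 averaged 1.49 (adjusted p = 0.0263), with 1.93 for shHIRA I (adjusted p = 0.0181) and 1.05 for the shHIRA II label (adjusted p = 0.167). Like Kitl, Fgf9 reached the filter's level mainly in the groups where it is high, in 3 libraries of each shHIRA group and 1 other. Fgf1 was the most abundant ligand RNA, at 27.7 TPM with shScramble and 16.5 with shHIRA I, while Fgf2 RNA did not exceed 0.242 TPM in any library.

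Of 17 other growth factor receptors tested, 6 were higher and 3 lower over both hairpins, beside 14.2% and 15.1% of all genes, with a median of 0.42 beside 0.03. Ddr2, a collagen receptor kinase, rose by 1.74 (adjusted p = 1.44e-05) and Epha2, an ephrin receptor, by 1.35 (adjusted p = 0.00125). Tyro3 fell by 0.77 (adjusted p = 1.58e-05) and Ntrk3, the neurotrophin 3 receptor, by 2.18 (adjusted p = 0.000208). Ntrk3 fell less with shHIRA I (-1.30) than under the shHIRA II label (-3.07, difference -1.77, adjusted p = 0.0195). Mean Ntrk3 was 4.39 CPM in parental cells beside 13.3 and 13.7 in the control groups, so its fall was from a level above the parental one. With shHIRA I its mean was not below that of parental cells, while in the shHIRA II-labelled libraries it was 1.61 CPM. Of 19 tested genes for shedding, turnover and cofactors of receptors, 9 rose and 3 fell, beside 14.2% and 15.1% of all genes, with a median of 0.37 beside 0.03. The heparan sulfate carriers, which help Fgf bind its receptors, moved apart: Gpc4 (1.67, adjusted p = 5.07e-06) and Sdc4 (1.13, adjusted p = 3.73e-05) rose and Gpc1 (-1.27, adjusted p = 8.83e-07) fell. Cd44, a coreceptor of Met in its variant forms, fell as well (-1.04, adjusted p = 3.77e-05). For Mc1r and Ednrb signalling, 5 of 24 tested G protein and cAMP genes rose and 5 fell, beside 14.2% and 15.1% of all genes, with a median of 0.02 beside 0.03. Among them the phosphodiesterase gene Pde4b rose (1.03, adjusted p = 0.000903), and the adenylyl cyclase genes Adcy2 (-1.08, adjusted p = 9.23e-05) and Adcy9 (-1.06, adjusted p = 0.00132) fell. Adcy9 was at -0.62 for shHIRA I (adjusted p = 0.116) and -1.51 for the shHIRA II label (adjusted p = 0.000619; difference adjusted p = 0.0497). Adcy7, another cyclase gene, averaged 0.76 (adjusted p = 0.0401), with 1.29 (adjusted p = 0.00666) and 0.23 (adjusted p = 0.624), a difference that was not called (adjusted p = 0.0532). Adcy2 differed between the hairpins, at 0.07 with shHIRA I (adjusted p = 0.855) and -2.22 in the shHIRA II-labelled libraries (adjusted p = 2.24e-06; difference -2.29, adjusted p = 1.03e-05).

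Of 17 tested transcription factors of the melanoblast, 8 fell over both hairpins, beside 15.1% of all genes, with a median of -0.47 beside 0.03. Called higher were 4, beside 14.2%, but they include Msx1, which passed the filter only through shHIRA libraries. The 17 and the median include Msx1 as well. Tfap2b averaged 0.87 (adjusted p = 0.000615), with 1.31 for shHIRA I (adjusted p = 0.000102) and 0.42 for the shHIRA II label (adjusted p = 0.104), and that difference was called (adjusted p = 0.00982). Msx1 was fitted at 2.26 (adjusted p = 0.00143) from group means of 0.606 CPM or less, and it reached the filter's level in 3 libraries of each shHIRA group and 0 others, so it entered the test where it is high. Irf4 (-1.47, adjusted p = 8.04e-06), which works with Mitf on pigment genes, and Foxd3 (-1.19, adjusted p = 3.28e-05), a neural crest factor, fell. Sox10, another marker of the lineage, was low and uneven, between 0.00016 and 11.2 TPM.

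Genes whose log2 CPM over the 20 libraries was most like that of Kit were Gnptab and Fam120a (Pearson's r 0.97 each), then Mitf, Sytl2 and Abi2 (0.96 each). Mitf averaged 154 TPM in parental cells, 143 with shLuciferase, 126 with shScramble, 104 with shHIRA I and 38.5 in the shHIRA II-labelled libraries, and its r with Kit after group means were subtracted was 0.82. The nearest to Met were Mgat5 (0.98) and Akap2 (0.97), to Fgfr1 Gxylt2 (0.93) and Htra1 (0.91), and to Bcl2 Klf6 (0.94) and Atp2b1 (0.92). For Erbb3 they were Jmy and Uri1 (0.92 each), for Fgfr2 Slc9a9 and Inpp5k (0.90 and 0.89), and for Mc1r Pomk and Shc4 (0.88 and 0.87). Kitl (Abcg2 and Rassf4, 0.81 each) and Fgfr3 (R3hdm4 and Olfr159, 0.79 and 0.78) had weaker matches. These values describe the 20 libraries, which share group shifts. Fgfr1 and Bcl2, which rose together with shHIRA I, had an r of 0.84 over all libraries and 0.51 within groups.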

How the data were processed

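Poly(A) RNA from 20 melb-a libraries was measured by stranded RNA-seq. The tools were kallisto, bcl2fastq and edgeR and the build mm10, per the submitters' processing notes, with versions, annotation and strand setting not given in the sources used here. What the authors deposited was a table of estimated counts per gene, which were not whole numbers and were rounded before testing, and a table of TPM, which they had scaled per library and which was used for levels between genes and for limma. The count of each gene was its TPM times 1 length per gene and 1 factor per library (largest deviation 0.009 on the log2 scale over 12479 genes), so no shift of transcript length between libraries enters. Columns named as control were taken as parental and shHIRA columns without numeral as shHIRA I, the groups left over. Dates stood in place of 27 gene names.

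edgeR 4.0.16 in R 4.3.3 (TMM, default low-count filter by group, quasi-likelihood F test) was fitted to all 20 libraries with 1 mean per group and no covariate. Calls are Benjamini-Hochberg adjusted p-values under 0.05 over 13541 genes, errors are SE from the fit, and intervals cover 95%. In simulated data of the knockdown comparison with 200 of 13541 genes changed 2-fold, 67.5% were recovered with none of wrong sign and 8 false calls. The simulation changed far fewer genes than the 29.3% called in the data and gave both hairpins the same effect. It therefore does not give the recovery for a single hairpin. The precision is set by these depths and 4 libraries a group. Alternatives were other scaling, no filter, DESeq2 1.42.0, limma 3.58.1 on log2(TPM + 1) and log2(TPM + 0.1), fits of only the groups compared, a replicate block, the mitochondrial share, and leaving out libraries. Beyond the 10 genes and Hira, named list genes are those called over both hairpins, at most 2 higher and 2 lower per list by lowest p, and the genes most alike by Pearson's r (5 for Kit, 2 for each other tested gene). The genes and lists were chosen with earlier results of these data known. Stretches of 31 bases shared with other genes made up at most 2.78% of the transcripts of any of the 10 genes, and Fgfr2 shared 2.69% with Ctbp2.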

Additional observations from a re-analysis of the deposited data

Results flagged for a closer look

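The difference between the shHIRA groups was called by edgeR for 4 genes, so their change under the same contrast depended on the hairpin. The shHIRA II-labelled libraries minus shHIRA I gave -1.28 for Kit, -1.46 for Met, -1.10 for Fgfr1 and -1.17 for Bcl2 on the log2 scale.

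In 5 of 47 groups of 4 libraries, 1 library lay far from the other 3 by Dixon's 95% criterion. For normally distributed values chance alone gives about 1 in 20, a rate that need not hold for the low counts of Kitl and Ednrb. Kitl had 0.758 CPM in shLuciferase replicate 2, against 0.0516 to 0.1 in the others. Fgfr1 had 181 CPM in the same library, against 80.2 to 86.3. Ednrb had 0.162 CPM in shHIRA I replicate 2, under 3 counts, against 0 in the others, where any lone value above 0 would be flagged. Mc1r had 22.6 CPM in shHIRA I replicate 1, against 39.9 to 42.5. Erbb3 had 115 CPM in shHIRA II replicate 2, against 164 to 170.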

How the results depend on the processing

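Over 30 alternative settings, 20 of which left out 1 library, 1973 of 2156 values of the 10 genes kept their direction and their side of the threshold. A further 98 lost a call, 25 gained one and 0 called values reversed; 60 values not called in either fit changed sign. Counts in this section include Kitl, which entered the test through the shHIRA I libraries, and they show only how calls moved. The share of all genes in each comparison is given above for the main fit. Over both hairpins 6 of 9 were called, or 5 of 8 without Kitl, beside 29.3% of all genes. The count with Kitl ran from 4 to 7 when 1 library was left out, with Kitl and Fgfr1 losing calls and Erbb3 and Fgfr2 gaining them. The following counts moved. With limma on either TPM scale, control hairpins against parental cells gave 0 calls in place of 1 and the shHIRA II-labelled libraries against parental cells 3 in place of 6, and the latter also gave 3 with the mitochondrial share as a covariate. Fits of only the groups compared gave 2 in place of 4 between the hairpins and 1 in place of 4 for shHIRA I against parental cells. Leaving out 1 library gave 0 to 2 for control hairpins against parental cells, 2 to 5 for shHIRA I against control hairpins (2 without shHIRA I replicate 1), 2 to 5 for shHIRA I against parental cells (2 without parental replicate 4 or shHIRA I replicate 1) and 3 to 7 for the shHIRA II-labelled libraries against parental cells (3 without shHIRA II replicate 1 or 4). The cause was not tested.

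Deviations of same-numbered libraries correlated by -0.31 to 0.42 (median 0.07, other pairs -0.02), over 0.1 in 17 of 40 pairs, and 13 of 20 libraries were nearest to their own number. The main fit did not take the numbers as pairs, because not every pair passed 0.1, which is a strict rule. Replicates 1 of shLuciferase, shScramble and shHIRA I correlated with each other by 0.36 to 0.41. Whether same-numbered libraries shared a batch was not tested, and the block described next allows for it. A replicate block gave 7 calls over both hairpins in place of 6, adding Fgfr2 (-0.41, adjusted p = 0.045), 4 for shHIRA I in place of 5, without Kitl (2.10, adjusted p = 0.0539), and 5 for the shHIRA II label against parental cells in place of 6, without Mc1r. Scaling by library totals alone moved the median of all genes from 0.03 to 0.14 and the share of higher calls from 48.5% to 65.4%, and limma on log2(TPM + 1) gave 65.5%; all 6 calls over both hairpins held under both. DESeq2 called 555 genes higher and 334 lower for control hairpins against parental cells, beside 278 and 212 by edgeR. That comparison also gave 231 and 85 with limma on log2(TPM + 1), 446 and 434 from its groups alone, 468 and 411 with the mitochondrial share, 440 and 404 without the 2 libraries of lowest share, and as few as 125 and 89 without parental replicate 2. Fits of only the groups compared called 385 higher and 703 lower between the hairpins (1164 and 1681 in the full fit), 996 and 781 for shHIRA I against control hairpins (1470 and 1201) and 600 and 291 against parental cells (1347 and 923). Without shHIRA I replicate 3 the hairpins differed in 1961 and 2469 genes. Depth limits Kitl and Ednrb.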
